A study of Mus musculus with 26 samples.

Results

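Myoblasts both send and receive inflammatory signals, and the messengers and receptors involved were followed here in C2C12, a mouse myoblast line that stops dividing and fuses into myotubes when serum is lowered. The genes were 44 chemokines, cytokines, their receptors and a few read-outs of NF-kB signalling, listed by name. Of these, 40 reached at least 10 counts in at least 3 of 26 libraries, a level that 17916 of 55341 genes in the count files reached. The remaining 4, Ccl20, Cxcl2, Cxcl14 and Tnfrsf11b, were at or near 0 in every library and were not followed further.

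The study asked what the lysine methyltransferase SMYD3 does in muscle differentiation, and it sequenced polyA RNA at 0 h and after 24 h in differentiation medium. In 18 libraries, 3 per group, unmodified C2C12 cells were transfected with a control siRNA (siCtrl) or with siSMYD3#1 or siSMYD3#2, and in 8 libraries, 2 per group, cells carried the empty pREV retroviral vector or pREV with tagged SMYD3 (SMYD3 CL5). CL5 is a single clone and the vector cells were also sub-cloned, so the clone and the transgene cannot be told apart. In each siRNA group, 2 libraries were extracted with NucleoSpin and 1 with TRIzol, the latter from cells of an earlier passage, whereas all vector and CL5 libraries were extracted with TRIzol. Library totals ran from 14315193 to 60398170 counts in the siRNA experiment and from 21124675 to 67853386 counts in the cell lines. The study's methods call them biological replicates, while the labels name no separate cultures, so the p-values measure the spread between the libraries of a group.

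Smyd3 itself was checked in every library. In siCtrl it measured 19.5 to 21.7 CPM (counts scaled to the size of the library) at 0 h and 17.8 to 20.7 at 24 h. In the libraries labelled siSMYD3#2 it fell to between 6.37 and 8.93 CPM at 0 h and to between 5.37 and 9.65 at 24 h, a log2 fold change of -1.51 ± 0.17 (SE) at 24 h with an edgeR adjusted p of 5.06e-05. In the libraries labelled siSMYD3#1 it measured 16.9 to 19.3 CPM at 0 h and 15.1 to 19.3 at 24 h, with a log2 difference of -0.24 ± 0.16 at 24 h that did not pass the test. CL5 measured 16.9 and 27.1 CPM at 0 h and 24.3 and 20.95 at 24 h, against 16.7 to 19.2 in the vector line, and these differences did not pass either. Every direction given below for siSMYD3#1 and for CL5 therefore belongs to libraries whose Smyd3 mRNA did not pass this test against its control. The paper also examined siSMYD3 cells by SMYD3 western blot and Smyd3 qPCR. It examined CL5 by western blots for the tag and for SMYD3, and reports stable ectopic SMYD3 in its clones. These RNA counts do not measure the protein.

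Chemokines are small secreted proteins that attract leukocytes and stem cells through G protein-coupled receptors. Cytokines of the interleukin-6 family, such as IL6, LIF, IL11 and oncostatin M, signal through receptor complexes that contain gp130 (Il6st) and drive JAK-STAT3, while TNF family receptors and the IL1 receptor lead to NF-kB. In muscle these signals recruit macrophages after damage and help to set the balance between myoblast division and differentiation. NF-kB turns on its own inhibitor IkBa (Nfkbia) and the deubiquitinase A20 (Tnfaip3), and Ptgs2 encodes COX-2, the inducible enzyme that makes prostaglandins.

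To show what the control regions of these genes look like, the 250 bases before the annotated start are printed for 3 members. Cxcl1 and Csf1 fell during differentiation and hold a match to the NF-kB consensus, and Ptgs2, which fell most, holds none of the motifs searched. Capitals mark the match. The windows come from the RefSeq promoter table on GRCm38.p6, they run 5′ to 3′ in the direction of the gene, and lie at chr5:90890995-90891244 (plus strand), chr3:107760470-107760719 (minus strand) and chr1:150099781-150100030 (plus strand).
Cxcl1: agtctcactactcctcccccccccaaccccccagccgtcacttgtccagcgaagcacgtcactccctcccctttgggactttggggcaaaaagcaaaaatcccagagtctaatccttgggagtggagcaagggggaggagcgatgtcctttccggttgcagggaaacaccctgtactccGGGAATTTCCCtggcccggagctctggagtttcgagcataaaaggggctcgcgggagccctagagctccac
Csf1: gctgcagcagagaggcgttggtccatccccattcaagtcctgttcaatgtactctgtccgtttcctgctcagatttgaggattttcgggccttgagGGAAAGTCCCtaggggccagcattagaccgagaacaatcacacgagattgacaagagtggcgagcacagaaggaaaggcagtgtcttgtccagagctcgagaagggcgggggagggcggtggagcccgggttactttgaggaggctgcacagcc
Ptgs2: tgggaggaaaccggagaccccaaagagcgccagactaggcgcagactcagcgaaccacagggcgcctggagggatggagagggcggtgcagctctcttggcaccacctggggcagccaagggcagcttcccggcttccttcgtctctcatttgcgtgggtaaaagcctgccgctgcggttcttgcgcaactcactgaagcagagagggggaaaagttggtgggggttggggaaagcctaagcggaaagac
The table held windows for 32 of the 40 members and none for Ccl2, Ccl5, Ccl7, Cxcl5, Cxcl16, Il15, Il34 or Csf1r. Searched on both strands, the NF-kB consensus matched in 9 of the 32 and in 8.23% of 27025 genes with a window. The genes were Ccl9, Csf1, Cxcl1, Cxcl10, Il1r1, Il6, Lif, Nfkbia and Tnfaip3. Of these, only Csf1 and Cxcl1 were called lower with differentiation of siCtrl cells. The AP-1 element TGANTCA matched in 7 of 32 members (7.82% of all genes), the E-box CAGCTG in 7 (14.72%), CACGTG in 3 (6.86%), the STAT element TTCNNNGAA in 2 (8.13%), and TATAAA, searched on the plus strand, in 8 (8.94%). In Cxcl1 the plus-strand and minus-strand matches overlap, starting 71 and 70 bases before the start. A match describes the letters and not binding, and 1 gene can have more than 1 window.

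Levels differed widely between members when scaled by exon length. In siCtrl at 0 h, the TWEAK receptor Tnfrsf12a led with 171 RPKM (CPM divided by exon length), and it was the highest in each of the 3 libraries. The order below it depended on extraction. The macrophage growth factor Csf1 measured 38.05 and 41.5 RPKM in the NucleoSpin libraries and 104 in the TRIzol library. The lymphotoxin receptor Ltbr measured 42.3, 46.8 and 54.6 RPKM and the TNF receptor Tnfrsf1a 43.75, 47.6 and 47.6, both above Csf1 in NucleoSpin libraries and below it with TRIzol. Ltbr and Tnfrsf1a differed by less than their spread between libraries. The monocyte chemokine Ccl7 measured 25.85, 24.7 and 42.6 RPKM, Ccl2 18.65, 17.9 and 37.1, Ptgs2 19.2, 18.7 and 28.6, and the IL13 receptor chain Il13ra1 20.9, 20.1 and 13.2. Il13ra1 thus lay above Ccl2 and Ptgs2 in NucleoSpin libraries and below both with TRIzol. Il15 (0.0347), Cxcl10 (0.0829) and Cxcl16 (0.0982) were the lowest, with only a few counts in some libraries. The cytokine genes Il6 and Il11 were sparse, at 0.133 and 0.908 RPKM, whereas gp130 (Il6st) measured 14.2.

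**Figure D1:**
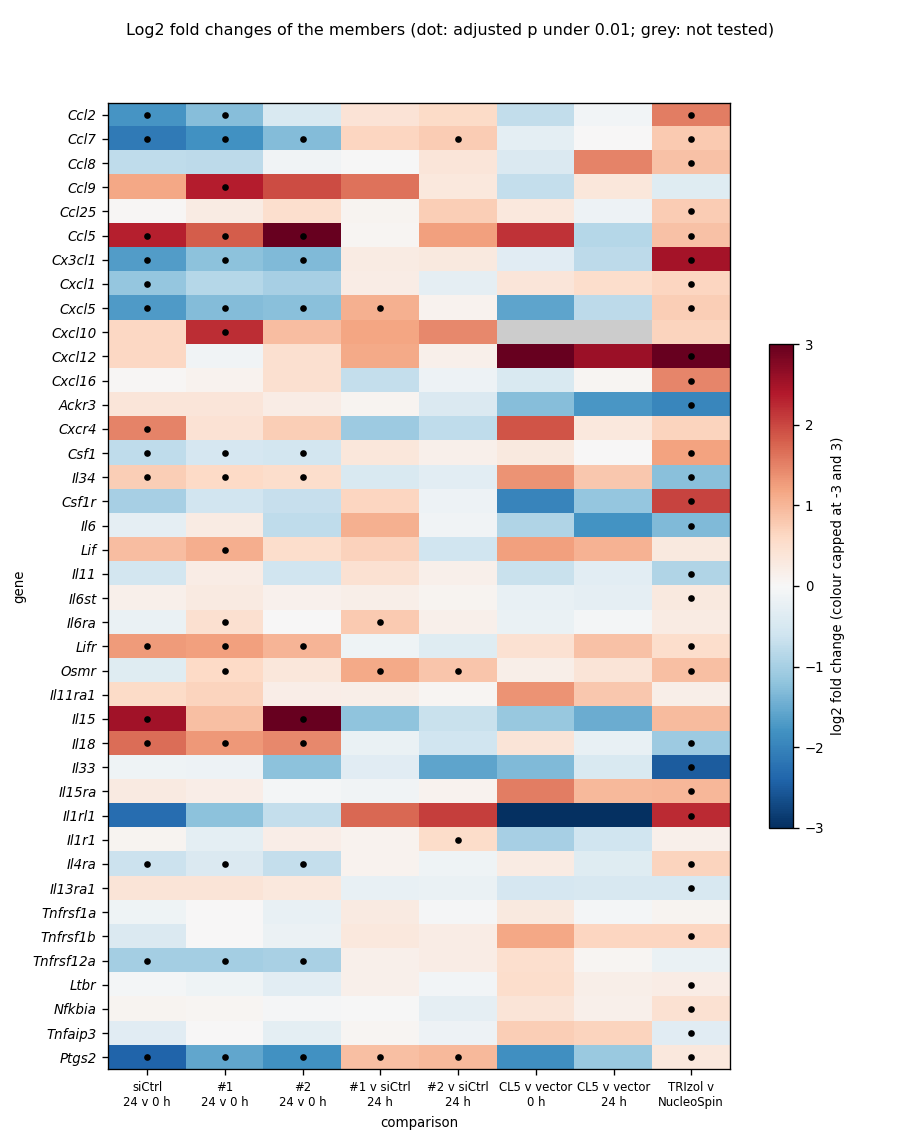
Log2 fold change of the 40 members (rows) in 8 comparisons (columns), with colour capped at -3 and 3, a dot where the adjusted p was below 0.01 and grey where a gene was not tested. Ptgs2 and Ccl7 are blue at 24 h in each siRNA condition and red with both siSMYD3 RNAs, and the extraction column on the right carries the most dots (30).

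Differentiation of siCtrl cells lowered 9 of 40 members and raised 6: Ptgs2, 5 chemokines, Csf1 and 2 receptors fell, and 2 receptors, Ccl5, Il15, Il18 and Il34 rose. Across all 15820 genes tested, 14.8% fell and 14.6% rose. The median log2 fold change was -0.10 for the members and 0.03 for all genes. In the same libraries 9 of 11 skeletal muscle markers rose, whose summed level ran from 164 to 1070 CPM at 0 h and from 838 to 3123 at 24 h, so RNA from more differentiated cells and altered expression per cell cannot be told apart in bulk samples. Des was the largest part of the sum, with means of 618 CPM at 0 h and 913 at 24 h.

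Ptgs2 (chr1:150100031-150108227, plus strand, GENCODE M21 on GRCm38) had the largest fall among the called members. Its level was 87.8, 85.8 and 131 CPM at 0 h (replicates 1 to 3, the last extracted with TRIzol) and 17.6, 14.8 and 24.6 CPM at 24 h. The ranges did not overlap, and the log2 fold change was -2.41 ± 0.17 (edgeR quasi-likelihood, Benjamini-Hochberg adjusted p = 1.48e-08). Ccl7 (chr11:82045712-82047525, plus strand), which draws monocytes through CCR2, fell from 20.7, 19.8 and 34.1 CPM to 3.90, 5.03 and 8.37 CPM. That is a log2 fold change of -2.13 ± 0.15 (adjusted p = 9.98e-09), again with no overlap. Its neighbour on chromosome 11, Ccl2, measured 21.2, 20.4 and 42.2 CPM and then 4.996, 5.88 and 16.1 CPM. Every 24 h library was below every 0 h library, and the log2 fold change was -1.77 ± 0.30 (adjusted p = 0.00027).

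The neutrophil-attracting chemokines moved the same way. Cxcl5 fell from 12.4, 9.69 and 14.9 CPM to 2.45, 2.48 and 6.86, with a log2 fold change of -1.71 ± 0.21 (adjusted p = 3.99e-06). Cxcl1 fell from 7.61, 7.32 and 8.32 CPM to 2.67, 2.16 and 6.19, with a log2 fold change of -1.15 ± 0.30 (adjusted p = 0.00512). Neither gene's ranges overlapped. The Cxcl1 call was lost when replicate 1 or 2 of either siCtrl group was left out, with log2 values from -1.09 to -0.98. Cx3cl1, the membrane-tethered ligand fractalkine, depended on extraction first: it measured 9.11 and 11.3 CPM in the NucleoSpin libraries and 59.3 in the TRIzol library at 0 h, and 2.63, 2.48 and 22.3 CPM at 24 h. The pooled ranges overlapped, but each library was lower than its same-numbered 0 h library, and the fitted log2 fold change was -1.68 ± 0.21 (adjusted p = 7.1e-06).

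The other members that fell were growth factor and receptor genes with smaller changes. Tnfrsf12a went from 333, 366 and 294 CPM to 180, 180 and 134, a log2 fold change of -1.02 ± 0.16 (adjusted p = 5.31e-05). Csf1, which keeps macrophages alive, went from 201, 219 and 551 CPM to 135, 124 and 303 (log2 -0.76 ± 0.09, adjusted p = 2.74e-06). Il4ra, the receptor chain shared by IL4 and IL13, went from 27.8, 31.7 and 57.1 CPM to 21.3, 20.96 and 29.6 (log2 -0.66 ± 0.12, adjusted p = 0.000211). The ranges of Tnfrsf12a did not overlap, whereas those of Csf1 and Il4ra did because their TRIzol libraries were high. An opposite-strand gene, Gm44876, shares 571 exon bases with Il4ra.

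Of the 6 members that rose, Lifr, the LIF receptor chain, was the most abundant. It measured 70.2, 68.5 and 62.4 CPM at 0 h and 125, 133 and 261 at 24 h, without overlap (log2 1.27 ± 0.23, adjusted p = 0.000379). The chemokine receptor Cxcr4, known for guiding muscle progenitors, rose from 11.8, 14.7 and 10.9 CPM to 27.0, 29.6 and 58.2, also without overlap (log2 1.48 ± 0.33, adjusted p = 0.00269). Its call was lost without replicate 1 or 3 of siCtrl at 0 h (log2 1.51 and 1.13) or replicate 3 at 24 h (log2 1.29). Il18, an IL1 family cytokine, rose from 2.78, 2.25 and 1.33 CPM to 7.28, 10.2 and 3.38 (log2 1.67 ± 0.21, adjusted p = 4.94e-06). Each 24 h library exceeded all 0 h libraries.

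Il34, the alternative ligand of the CSF1 receptor, rose from 9.77, 11.3 and 4.53 CPM to 17.3, 17.4 and 7.74. Its direction was thus opposite to that of Csf1, with a log2 fold change of 0.73 ± 0.12 (adjusted p = 6.21e-05). The receptor of both ligands, Csf1r, was near background, with at most 1.58 CPM in any library. The lymphocyte chemokine Ccl5 rose from 0.146, 0.137 and 0.331 CPM to 0.877, 0.653 and 1.51 (log2 2.33 ± 0.44, adjusted p = 0.000327), and its 0 h libraries held 4, 8 and 9 counts. Il15 rose from 0.0732, 0.0514 and 0.110 CPM to 0.219, 0.392 and 0.809 (adjusted p = 0.00112), and since no 0 h library held more than 3 Il15 counts, no fold is given for it. The Il15 call was lost without replicate 3 at 0 h (adjusted p = 0.0107; 0.00109 to 0.0133 over its 12 alternatives).

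**Figure D2:**
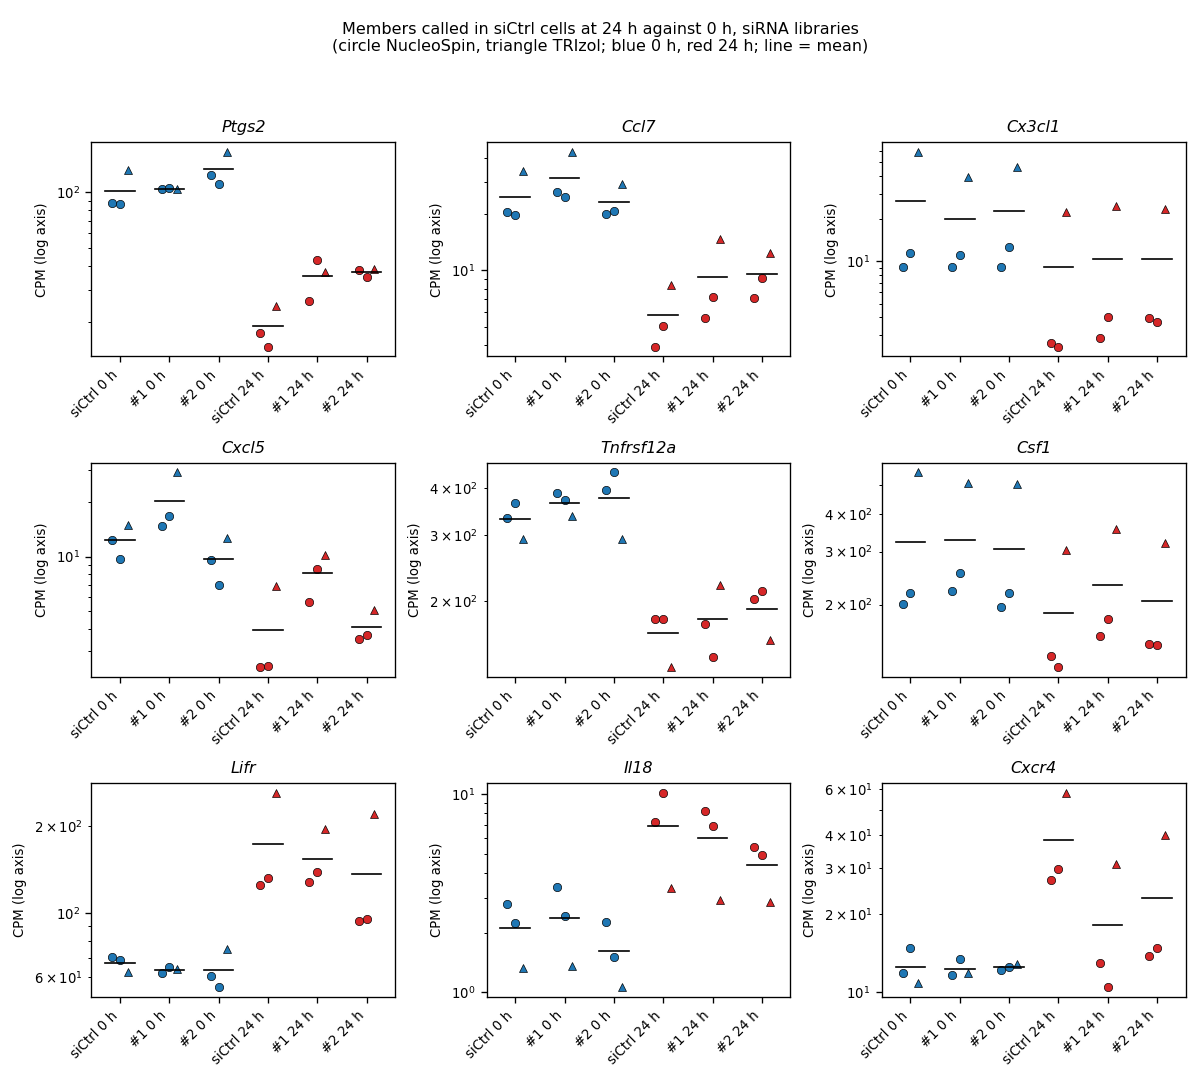
CPM (log axis) of 9 members in the 18 siRNA libraries, grouped by siRNA and time, with 1 symbol per library, circles for NucleoSpin, triangles for TRIzol, blue for 0 h, red for 24 h and a line at the mean. Ptgs2, Ccl7, Cxcl5 and Tnfrsf12a drop and Lifr and Il18 climb in each condition, and for Cx3cl1 and Csf1 the triangles lie well above the circles of the same group.

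The same comparison was run within the cells given siSMYD3#1 or siSMYD3#2, which share no library with the siCtrl comparison. With siSMYD3#1, 9 members rose (12.7% of all genes) and 8 fell (12.7%). With siSMYD3#2, 5 rose (9.11%) and 7 fell (9.88%). Ccl7, Csf1, Cx3cl1, Cxcl5, Il4ra, Ptgs2 and Tnfrsf12a fell and Ccl5, Il18, Il34 and Lifr rose in all 3 conditions. The share of all genes that passed in all 3 was not counted, so this list is no result about the members as a set. Of the calls in the siSMYD3 cells, some rested on single libraries. With siSMYD3#1, leaving out 1 of the 6 libraries lost the call of Il4ra in 5 fits (log2 -0.49 to -0.40), of Ccl5 in 3 (without replicate 1 or 2 at 0 h or replicate 2 at 24 h) and of Il34 in 1 (without replicate 2 at 0 h), and Il4ra did not pass in the NucleoSpin libraries alone (log2 -0.41, adjusted p = 0.0175). With siSMYD3#2, Lifr was lost in 4 of 6 fits (without any 1 of the 0 h libraries or replicate 3 at 24 h, log2 0.68 to 1.08) and Il34 in 3 (without replicate 3 at 0 h or replicate 1 or 2 at 24 h, log2 0.46 to 0.52).

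Sizes varied among the conditions. Ptgs2 had a log2 fold change of -1.57 ± 0.16 with siSMYD3#1 and -1.82 ± 0.16 with siSMYD3#2, against -2.41 in siCtrl. Ccl7 had -1.82 ± 0.15 and -1.31 ± 0.15, against -2.13. Ccl5 had 1.81 ± 0.43 and 3.06 ± 0.41, against 2.33, with 3, 3 and 19 counts at 0 h with siSMYD3#1 and 15, 6 and 3 with siSMYD3#2. Whether the siRNA changed the response to differentiation was tested as an interaction, and 0 of 40 members passed with either siRNA by edgeR, where 0.215% of all genes passed for siSMYD3#1 and 0.019% for siSMYD3#2. At an unadjusted p under 0.05 there were 6 and 4 members, where 8.77% and 10% of all genes had one, and DESeq2 called 1 (Osmr) and 0, where it called 0.927% and 0.85% of all genes. In the NucleoSpin libraries alone, edgeR called the siSMYD3#1 interaction of Cxcr4 (log2 -1.15, adjusted p = 0.00367) and Osmr (log2 1.14, adjusted p = 0.00885). For siSMYD3#2 it called that of Il33 (log2 -1.70, adjusted p = 0.003). The share of all genes called there was not counted.

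Several members passed in 1 condition and not in another, a difference that only the interaction tests. Cxcl1 and Cxcr4 passed in siCtrl alone. The Cxcr4 log2 fold change was 0.44 with siSMYD3#1 and 0.74 with siSMYD3#2. Ccl9, Cxcl10, Lif, Il6ra and Osmr passed with siSMYD3#1 alone. This depended on the libraries used: within the NucleoSpin libraries Ccl9 (log2 1.81, 3.10 and 2.53), Lif (1.44, 1.35 and 0.88) and Cxcl1 (-1.62, -1.16 and -1.40) passed in siCtrl, siSMYD3#1 and siSMYD3#2 alike. Ccl2 passed in siCtrl and siSMYD3#1, and Il15 in siCtrl and siSMYD3#2. Ccl9, a myeloid chemokine, rose with siSMYD3#1 from 6.46, 5.41 and 9.47 CPM to 41.6, 62.3 and 16.8, with the largest rise in the NucleoSpin libraries (log2 2.37 ± 0.52, adjusted p = 0.00302). Osmr rose by log2 0.61 ± 0.15 there (adjusted p = 0.00339) and the interferon-induced chemokine Cxcl10 rose from 0.0778, 0.0525 and 0.271 CPM to 0.435, 0.708 and 0.889 (adjusted p = 0.00607). Its 0 h libraries held 2, 1 and 8 counts, so no fold is given. Lif and Il6ra rose by log2 1.10 ± 0.30 and 0.49 ± 0.14, and both calls were lost when the replicate number was added as a block (adjusted p = 0.0102 and 0.0127, within 9.08e-07 to 0.0533 and 0.00358 to 0.0956 over their alternatives). Leaving out single siSMYD3#1 libraries moved the number called from 17 to between 8 and 15, lowest without replicate 2 at 0 h, with 9 without replicate 2 at 24 h and 10 without replicate 1 at 0 h. Of 6 such fits, the call was lost in 3 for Ccl9 (log2 1.97 to 2.83 over the 6), 4 for Osmr and Ccl2, 5 for Cxcl10 and Lif and 6 for Il6ra.

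Before differentiation the siRNAs moved few members. At 0 h, 1 of 40 members passed with siSMYD3#1 (1.43% of all genes in either direction). This was Il1r1, the signalling receptor of IL1, which measured 100, 96.0 and 109 CPM against 74.7, 67.1 and 79.6 in siCtrl (log2 0.47 ± 0.09, adjusted p = 0.00509). The groups did not overlap and it was higher in 3 of 3 same-numbered pairs, but the call was lost in each of the 6 fits that left out 1 library (log2 0.42 to 0.51, adjusted p = 0.0125 to 0.031). With siSMYD3#2, 0 of 40 members passed by edgeR (0.531% of all genes), 6 had an unadjusted p under 0.05 (10.1% of all genes), and DESeq2 called 1, Il1r1 (1.73% of all genes). There Il1r1 measured 98.8, 83.8 and 114 CPM, a log2 difference of 0.42 ± 0.09 with an edgeR adjusted p of 0.0228.

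At 24 h the siRNA groups differed from siCtrl in the same direction: each called member was higher. With siSMYD3#1, 4 members rose (2.91% of all genes rose) and 0 fell (2.94% fell), and with siSMYD3#2, 4 rose (1.66%) and 0 fell (2.04%). Osmr and Ptgs2 were raised with both, Cxcl5 and Il6ra with siSMYD3#1, and Ccl7 and Il1r1 with siSMYD3#2. The 2 comparisons share the 3 siCtrl libraries, so a gene called in both has not been tested independently. The members' median log2 difference was 0.17 with siSMYD3#1 and 0.09 with siSMYD3#2, against 0.00 for all genes with each. In the same comparisons 8 and 7 of 11 skeletal muscle markers were lower, including the embryonic myosin gene Myh3 at log2 -4.00 ± 0.36 and -2.41 ± 0.34 and the creatine kinase gene Ckm at -3.80 ± 0.25 and -2.26 ± 0.23, and their part in the members' differences was not tested.

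Osmr (chr15:6813577-6874969, minus strand), the oncostatin M receptor chain that pairs with gp130, measured 12.1, 14.4 and 26.3 CPM in siCtrl at 24 h. It measured 27.2, 38.1 and 45.6 CPM with siSMYD3#1, above all siCtrl libraries (log2 1.13 ± 0.15, adjusted p = 6.55e-05). With siSMYD3#2 it measured 22.0, 23.1 and 50.4 CPM, overlapping siCtrl in the pooled values but higher in 3 of 3 pairs (log2 0.84 ± 0.15, adjusted p = 0.00187). At 0 h its log2 differences were 0.03 to 0.30 and -0.04 to 0.40 over the same-numbered pairs. The interaction for siSMYD3#1 was 0.97 ± 0.21 with an adjusted p of 0.041.

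Ptgs2 measured 26.1, 43.0 and 37.4 CPM with siSMYD3#1 and 38.2, 35.1 and 38.4 CPM with siSMYD3#2, against 17.6, 14.8 and 24.6 in siCtrl. Neither group overlapped siCtrl, and the log2 differences were 0.90 ± 0.17 (adjusted p = 0.00157) and 0.98 ± 0.17 (adjusted p = 0.0013). All 6 groups of the siRNA experiment therefore place Ptgs2 in the order 0 h above siSMYD3 at 24 h above siCtrl at 24 h, and the siSMYD3 groups at 24 h did not differ beyond their spread.

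**Figure D3:**
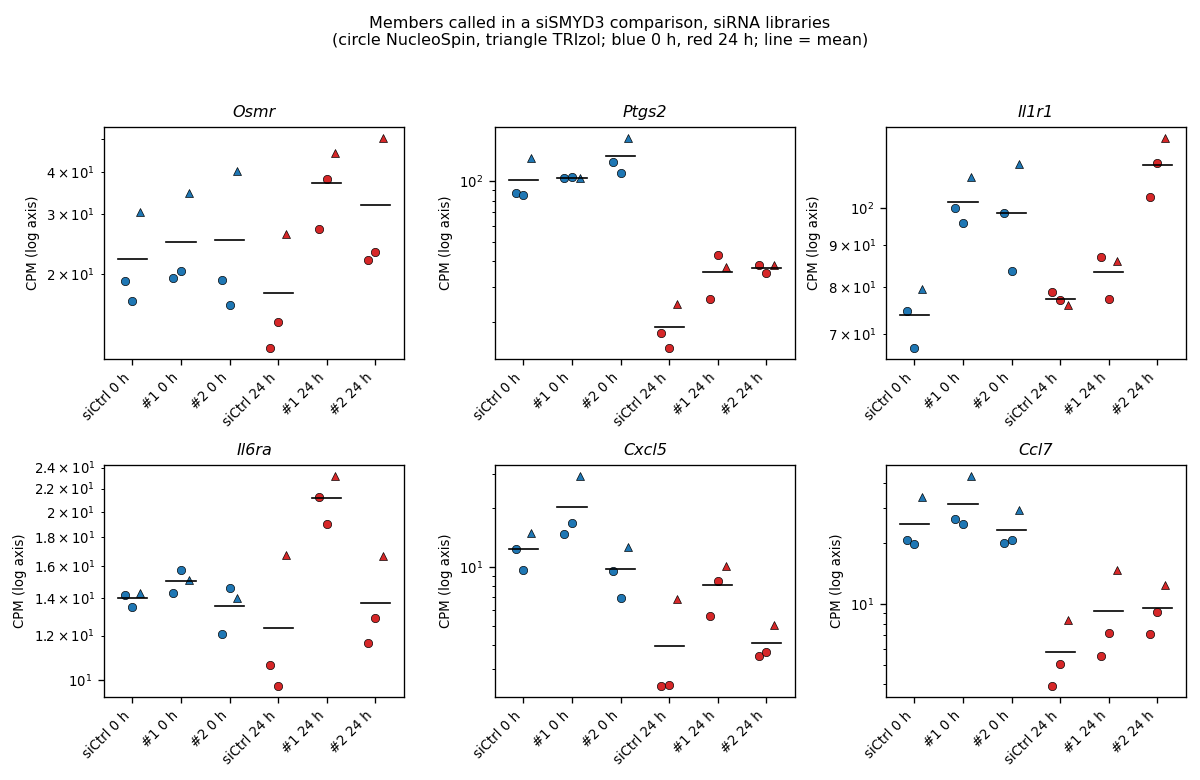
CPM (log axis) of the 6 members called at 24 h with a siSMYD3 RNA, in the 18 siRNA libraries, with 1 symbol per library, circles for NucleoSpin, triangles for TRIzol and a line at the mean. Among the red 24 h symbols, Ptgs2 in both siSMYD3 groups lies above all siCtrl libraries, and Il6ra and Cxcl5 are higher with #1 than with #2.

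The members called with 1 siRNA were 2 chemokines and 2 receptors. Cxcl5 measured 5.62, 8.49 and 10.2 CPM with siSMYD3#1 against 2.45, 2.48 and 6.86 in siCtrl (log2 1.07 ± 0.22, adjusted p = 0.00269). Il6ra, the IL6-binding chain, measured 21.3, 19.0 and 23.2 CPM against 10.7, 9.73 and 16.8 (log2 0.78 ± 0.14, adjusted p = 0.0011). Cxcl5 overlapped siCtrl and Il6ra did not, and both were higher in 3 of 3 pairs. Gm42809, on the opposite strand, shares 242 exon bases with Il6ra.

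With siSMYD3#2, Ccl7 measured 7.10, 9.12 and 12.4 CPM against 3.90, 5.03 and 8.37 in siCtrl (log2 0.76 ± 0.16, adjusted p = 0.00552). Il1r1 measured 103, 114 and 122 CPM against 78.9, 77.1 and 76.1 (log2 0.54 ± 0.09, adjusted p = 0.000895). Ccl7 overlapped siCtrl and Il1r1 did not. With siSMYD3#1 the Ccl7 log2 difference was 0.64 ± 0.16 and missed the threshold (adjusted p = 0.0112), and that of Il1r1 was 0.11.

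Within the NucleoSpin libraries alone, the Osmr log2 differences were 1.30 with siSMYD3#1 and 0.78 with siSMYD3#2, those of Ptgs2 1.06 and 1.16, that of Cxcl5 1.48, Il6ra 0.99, Ccl7 0.88 and Il1r1 0.47, and each of these passed. Calls that single libraries decided were Ccl7, lost in 6 of 6 leave-one-out fits (log2 0.63 to 0.84), Cxcl5, lost without siCtrl replicate 1 or 2 or siSMYD3#1 replicate 2 (log2 0.92, 0.96 and 0.89), and Il6ra, lost without siCtrl replicate 1 or 2 (log2 0.72 and 0.68). Osmr with siSMYD3#2 was lost without siCtrl replicate 1 or siSMYD3#2 replicate 3 (log2 0.76 and 0.70). Ptgs2 was lost without siCtrl replicate 2 for siSMYD3#1 (log2 0.80) and without siSMYD3#2 replicate 1 for siSMYD3#2 (log2 0.91). Without an extraction term in the model, 0 members passed at 24 h with either siRNA.

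Members that did not pass include several with sizeable values. Ccl9 was higher at 24 h with siSMYD3#1 in 3 of 3 pairs, at 41.6, 62.3 and 16.8 CPM against 17.05, 16.9 and 5.03 in siCtrl (log2 1.63 ± 0.49, adjusted p = 0.0507), and it passed in the NucleoSpin libraries alone at log2 1.61. Cxcr4 was lower at 24 h with siSMYD3#1 in all 3 pairs, at 13.0, 10.5 and 31.0 CPM against 27.0, 29.6 and 58.2 (log2 -1.10 ± 0.33, adjusted p = 0.0483). With siSMYD3#2 it measured 13.8, 14.8 and 40.2 CPM (log2 -0.77 ± 0.33, adjusted p = 0.178). In the NucleoSpin libraries alone both differences passed, at log2 -1.25 and -0.98. Il33, a nuclear alarmin, measured 2.73, 2.02 and 1.57 CPM with siSMYD3#2 against 9.64, 9.47 and 2.60 in siCtrl (log2 -1.58 ± 0.55, adjusted p = 0.0927) and passed in the NucleoSpin libraries at log2 -2.01. The IL33 receptor Il1rl1, by contrast, measured 0.303, 0.462 and 3.76 CPM against 0.0877, 0 and 0.880, too few counts in siCtrl for a fold. Lifr was called lower with siSMYD3#2 in the NucleoSpin libraries alone (log2 -0.45, edgeR adjusted p = 0.00155). DESeq2 called Il34 lower with siSMYD3#1 (log2 -0.46, adjusted p = 0.00256) and Ackr3 lower with siSMYD3#2 (log2 -0.44, adjusted p = 0.00439). It also called Ccl7, Csf1 and Tnfrsf1a higher with siSMYD3#1.

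The siRNAs were also compared with each other at 24 h. siSMYD3#1 was higher than siSMYD3#2 for Cxcl5, Il6ra and the scavenging chemokine receptor Ackr3 (3 of 40, 2.05% of all genes) and lower for Il1r1 (1 of 40, 1.31% of all genes). Ackr3 measured 56.8, 49.9 and 14.0 CPM with siSMYD3#1 and 39.1, 35.5 and 9.88 with siSMYD3#2, a log2 difference of 0.52 ± 0.11 (adjusted p = 0.00662). Cxcl5 and Il6ra differed by 0.97 ± 0.22 and 0.63 ± 0.14 (adjusted p = 0.0092 for each), and Il1r1 by -0.44 ± 0.09 (adjusted p = 0.00504). With the replicate number as a block, only Il1r1 passed, and the other adjusted p rose to 0.0103 for Ackr3, 0.0139 for Cxcl5 and 0.0135 for Il6ra (ranges over their alternatives 0.000434 to 0.961, 1.72e-05 to 0.412 and 0.00119 to 0.164). All 4 calls were also lost when single libraries were left out, Ackr3, Cxcl5 and Il6ra in each of 6 fits and Il1r1 in 3 (replicate 2 of siSMYD3#1, replicates 2 and 3 of siSMYD3#2, at log2 -0.41 to -0.40). For Osmr, Ptgs2 and Ccl7 no difference between the siRNAs was called.

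RNA extraction and passage, which coincide, separated more members than any treatment. TRIzol libraries were higher than NucleoSpin libraries for 22 of 40 members (26.1% of all genes) and lower for 8 (25.3%). The members' median was log2 0.59, while that of all genes was -0.01. Cxcl12, the ligand of CXCR4, measured 0.261 to 6.72 CPM in the 12 NucleoSpin libraries and 13.4 to 40.8 CPM in the 6 TRIzol libraries, a log2 difference of 4.05 ± 0.29 (adjusted p = 5.06e-08). Cx3cl1 was higher in TRIzol libraries by 2.50 ± 0.12, Il1rl1 by 2.24 ± 0.37, Csf1r by 2.03 ± 0.26, Ccl2 by 1.54 ± 0.17, Cxcl16 by 1.47 ± 0.37 and Csf1 by 1.20 ± 0.05. In the other direction, Il33 differed by -2.51 ± 0.35, Ackr3 by -1.95 ± 0.07, Il6 by -1.33 ± 0.41, Il34 by -1.26 ± 0.08, Il18 by -1.10 ± 0.14 and Il11 by -0.89 ± 0.16. The receptors Cxcr4 and Ackr3 that bind CXCL12 thus had opposite signs, Cxcr4 at 0.67 without a call. Csf1r shares 873 exon bases with Hmgxb3 and Cxcl16 shares 552 with Zmynd15, on opposite strands.

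**Figure D4:**
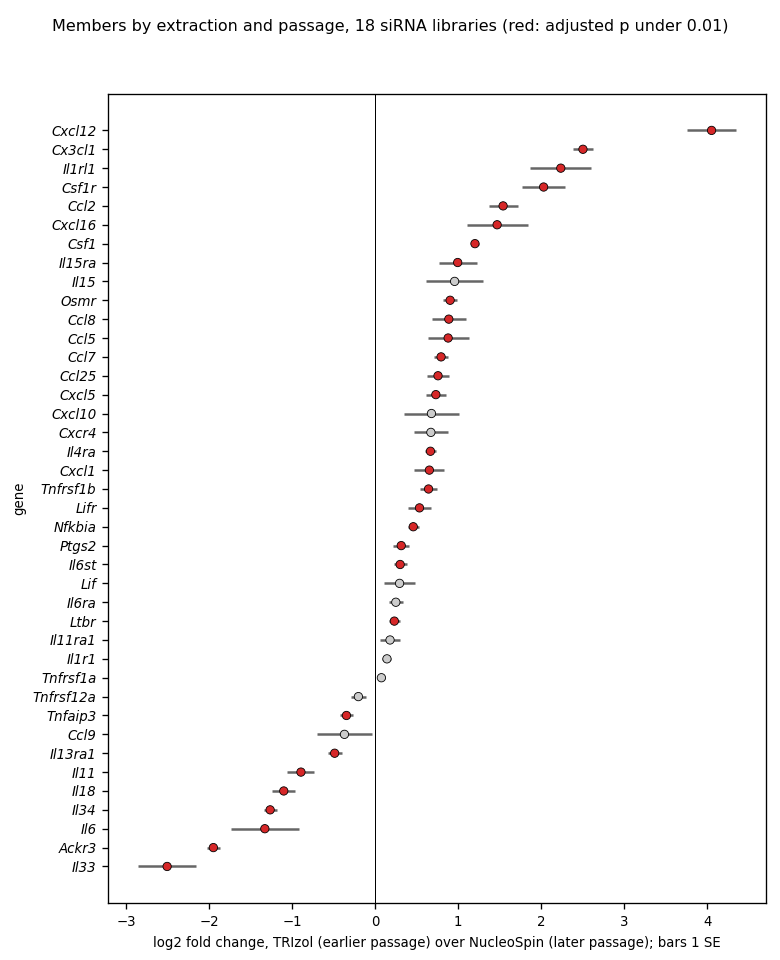
Log2 fold change of each member between TRIzol libraries (earlier passage, 6 libraries) and NucleoSpin libraries (later passage, 12 libraries) in the siRNA experiment, with bars of 1 SE and red where the adjusted p was below 0.01. Cxcl12 lies furthest to the right at 4.05 and Il33 furthest to the left at -2.51.

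Of the 40 members, 22 passed in at least 1 comparison of time or siRNA, as did 39.8% of all genes tested in the siRNA libraries. Of the 18 that did not, 16 differed by extraction and passage, as did 47.1% of all genes that passed in none: Ccl8, Ccl25, Cxcl12, Cxcl16, Csf1r, Il6, Il11, Il6st, Il33, Il15ra, Il1rl1, Il13ra1, Tnfrsf1b, Ltbr, Nfkbia and Tnfaip3. Il11ra1 and the TNF receptor Tnfrsf1a passed in none of the comparisons by edgeR. DESeq2 called Tnfrsf1a at 24 h with siSMYD3#1 against siCtrl (log2 0.27, adjusted p = 0.00148) and against siSMYD3#2 (log2 0.29, adjusted p = 0.000577). It also called Tnfrsf1a at 24 h against 0 h under siSMYD3#2 (log2 -0.22, adjusted p = 0.00647) and Il11ra1 under siSMYD3#1 (log2 0.67, adjusted p = 0.007). Il11ra1 has a near-identical paralogue, Il11ra2, so its counts are uncertain. Nfkbia and Tnfaip3, the feedback genes of NF-kB, had log2 differences of 0.08 and -0.34 with differentiation of siCtrl cells. At 24 h those of Nfkbia were 0.00 with siSMYD3#1 and -0.28 with siSMYD3#2, and those of Tnfaip3 were 0.07 and -0.15.

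In the cell lines the spread between libraries was larger and 0 of 39 tested members passed by edgeR in any comparison (Cxcl10 was too low to test). With 200 genes changed by log2 1 in simulated counts, the test of CL5 against vector at 24 h recovered 0 of them. At log2 2 it recovered 74 of 200. A member without a call in the cell lines is therefore not shown to be unchanged. With 24 h of differentiation 0% of all genes passed in the vector line and 0% in CL5, and 5 members had an unadjusted p under 0.05 in each (7.04% and 6.38% of all genes). DESeq2 called 1 member in the vector line, Ccl7 with log2 -1.29 (0.755% of all genes), and 0 in CL5 (0.663%). Leaving out a CL5 library at 0 h moved the number called for CL5 at 24 h against 0 h, but such a fit rests on a lone library in that group. Ccl7 measured 36.1 and 27.1 CPM in the vector line at 0 h and 13.8 and 11.6 at 24 h, and 27.0 and 24.6 then 13.8 and 11.7 in CL5. Between lines, 1.07% of all genes passed at 0 h and 0.964% at 24 h. Among members, 14 and 11 had an unadjusted p under 0.05, against 18.3% and 14% of all genes. DESeq2, which called 5.84% of all genes at 0 h and 5.03% at 24 h, called 8 members at 0 h (Ackr3, Cxcl12, Cxcr4, Il11ra1, Il1rl1, Il34, Lif and Tnfrsf1b) and 4 at 24 h (Ackr3, Cxcl12, Il1rl1 and Lif). The members called by edgeR at 0 h also moved when a CL5 library at 0 h was left out. The share of all genes called in those fits was not counted, so no count is given. The interaction of line and time was called for 0% of genes and 0 members, with 1 member at an unadjusted p under 0.05 (1.75% of all genes) and 0 by DESeq2 (0.0112%).

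Cxcl12 (chr6:117168535-117181367, plus strand) had the largest positive difference from vector among the tested members. It measured 345 and 152 CPM in CL5 at 0 h and 307 and 107 at 24 h, against 27.5 and 20.9 and then 37.8 and 32.6 in the vector line. The lines did not overlap, at log2 3.36 ± 0.59 at 0 h (adjusted p = 0.0264) and 2.56 ± 0.57 at 24 h (adjusted p = 0.0611), although CL5 replicate 1 exceeded replicate 2 at both times. Its scavenging receptor Ackr3 measured 31.9 and 20.2 CPM in CL5 at 0 h and 22.1 and 27.4 at 24 h, against 60.8, 65.7, 89.6 and 75.7 in vector. This was log2 -1.28 ± 0.27 at 0 h (adjusted p = 0.0485) and -1.74 ± 0.28 at 24 h (adjusted p = 0.0189). In the separate siRNA experiment, siCtrl cells measured 10.4 to 41.1 CPM Ackr3 at 0 h and 14.4 to 53.9 at 24 h, below the vector line. Neither line was tested against unmodified cells.

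Il1rl1 was far lower in CL5, at 0.429 and 1.13 CPM at 0 h and 0.728 and 0.230 at 24 h, against 3.89 and 9.56 and then 11.6 and 26.1 in vector. The log2 difference was -3.11 ± 0.75 at 0 h (adjusted p = 0.0699) and -5.17 ± 0.82 at 24 h (adjusted p = 0.0186). In the siRNA experiment, siCtrl cells measured 0.789 to 2.43 CPM Il1rl1 at 0 h and 0 to 0.880 at 24 h, also below the vector line. Il34 was higher at 23.2 and 28.2 CPM against 9.51 and 10.7 at 0 h, and 31.8 and 29.1 against 17.3 and 17.4 at 24 h. Lif, the cytokine that signals through LIFR and gp130, was higher at 8.93 and 8.94 CPM against 3.39 and 4.21 at 0 h, and 9.36 and 10.2 against 4.90 and 4.66 at 24 h. Neither gene's lines overlapped at either time, and the log2 differences at 24 h were 0.81 ± 0.21 for Il34 (adjusted p = 0.102) and 1.03 ± 0.25 for Lif (adjusted p = 0.0798).

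Ptgs2, which the siSMYD3 groups held higher at 24 h, was lower in CL5. It measured 31.0 and 10.4 CPM at 0 h against 71.5 and 77.6 in vector, and 24.5 and 9.21 at 24 h against 42.7 and 30.6, at log2 -1.85 ± 0.59 (adjusted p = 0.158) and -1.11. Osmr measured 85.0 and 34.6 CPM at 0 h and 85.6 and 55.5 at 24 h in CL5, around the 50.2 to 56.4 of the vector line. The muscle markers' summed level was 876 to 1917 CPM in CL5 at 0 h against 450 to 455 in vector, and the endothelial markers' was 0.487 to 1.04 CPM against 19.5 to 26.3, most of the latter Flt1. Most of the muscle sum was Des, with means of 841 CPM in CL5 and 343 in vector at 0 h. At 24 h mean Myog was 7.15 CPM in vector, 101 in CL5 and 180 in siCtrl. Mean Acta1 was 13.75, 528 and 309 CPM in the same groups. The part of these markers in the members' values was not tested.

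**Figure D5:**
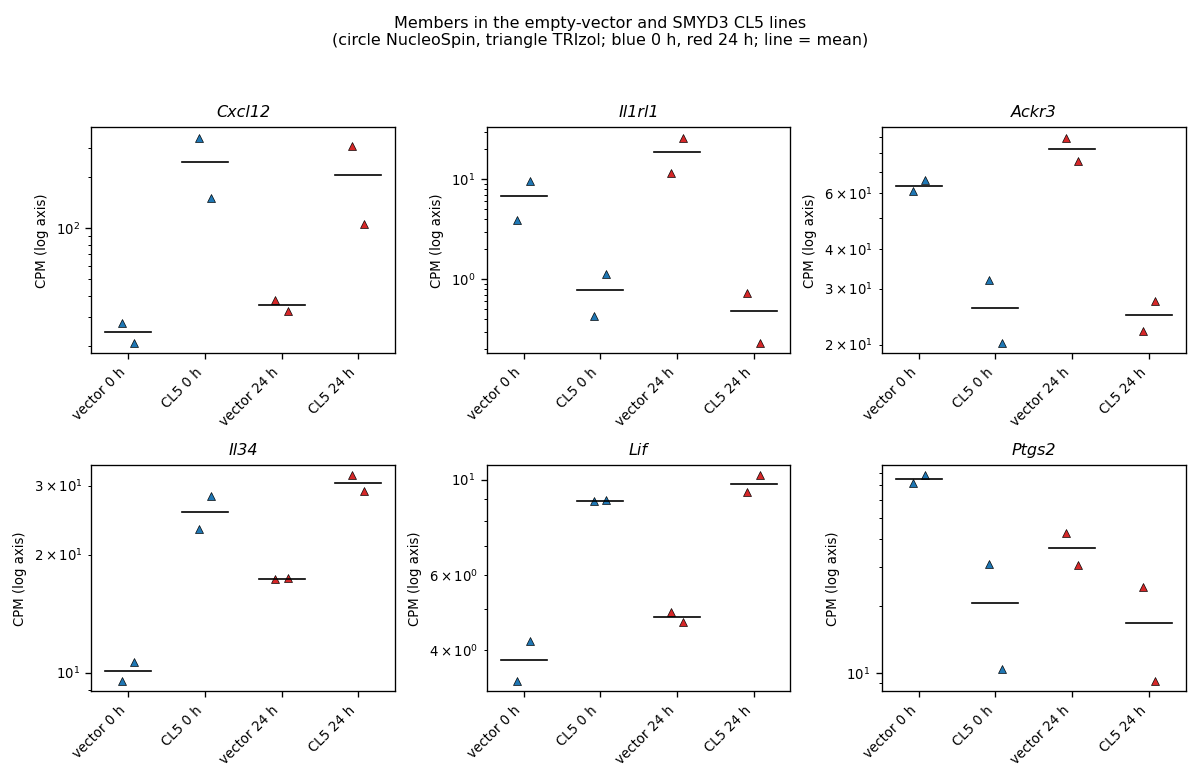
CPM (log axis) of 6 members in the 8 empty-vector and SMYD3 CL5 libraries, all extracted with TRIzol, with 1 triangle per library, blue for 0 h, red for 24 h and a line at the mean. Cxcl12, Il34 and Lif lie higher and Il1rl1, Ackr3 and Ptgs2 lower in CL5 at both times, and the 2 CL5 libraries of a time differ by more than the vector libraries for Cxcl12 and Ptgs2.

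Related genes outside the list moved as follows in siCtrl at 24 h, by the same test over all genes, of which 14.6% rose and 14.8% fell. Of 40 other chemokines and chemokine receptors only 7 were high enough to test and 0 passed. Of 60 other cytokines and cytokine receptors, 38 were tested, 9 rose and 5 fell, among them the common gamma chain Il2rg (log2 1.47 ± 0.20). Of 34 NF-kB pathway genes 31 were tested, with 5 up and 2 down, of 30 JAK-STAT genes 30 were tested, with 5 up and 2 down, and of 25 interferon-stimulated genes 21 were tested, with 4 up and 0 down.

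With siSMYD3#1 at 24 h these lists gave 1 up and 0 down for chemokines (Cxcr6, the receptor of CXCL16, log2 2.58 ± 0.44), 3 up and 3 down for cytokines, 0 up and 1 down for NF-kB (the adaptor Tab2, log2 -0.38 ± 0.09), 0 up and 1 down for JAK-STAT (Bcl6, log2 -0.58 ± 0.11) and 0 for interferon-stimulated genes. With siSMYD3#2 they gave 0 for chemokines, 1 up and 3 down for cytokines (Il2rg, log2 -1.97 ± 0.21), 0 for NF-kB, 0 up and 2 down for JAK-STAT (Socs7, log2 -0.75 ± 0.12, and Bcl6, log2 -0.71 ± 0.11) and 1 up and 0 down for interferon-stimulated genes (Ifit1, log2 1.71 ± 0.33). With siSMYD3#1, Ifit1 (log2 1.38 ± 0.33, edgeR adjusted p = 0.0101) and Il2rg (log2 -0.79 ± 0.19, adjusted p = 0.0103) narrowly missed the threshold. Between the siRNAs Il2rg passed (log2 1.18 ± 0.22) and Ifit1 did not. In CL5 against vector at 24 h the cytokine list gave 1 up, the death receptor Fas (log2 1.94 ± 0.26), and 1 down, the decoy receptor Il13ra2 (log2 -4.87 ± 0.58). Each of the other 4 lists gave 0 there. Of all genes tested, 2.91% rose and 2.94% fell with siSMYD3#1, and 1.66% and 2.04% with siSMYD3#2. In CL5 against vector at 24 h, 0.964% passed in either direction.

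Since many members are best known from leukocytes, 12 macrophage and leukocyte markers were read in the same libraries. Adgre1 and Tyrobp were at 0 in every library, and the summed level of all 12 ran from 10.1 to 20.8 CPM over all libraries. Most of this sum was Cd14, with group means from 10.22 to 13.98 CPM, and Cd68, with group means of at most 4.77 CPM. In the siRNA comparisons of time or treatment, 0 of 2 testable markers were called. By extraction and passage, 1 of these 2 was called lower in TRIzol libraries.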

How the data were processed

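PolyA RNA from 26 C2C12 libraries was sequenced in pairs after TruSeq Stranded preparation. Per the study's methods and processing notes, the authors checked reads with FastQC 0.11.5, aligned them with HISAT2 2.1.0 to GRCm38 and deposited raw counts per gene from featureCounts (Subread 1.6.3). The strand setting of the counting is not given in the sources used here, so for the 8 members that share exon bases with an opposite-strand gene the reads of both may be mixed. Symbols, coordinates and lengths came from GENCODE M21, which named 54495 of 55341 gene IDs.

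Counts were tested with edgeR 4.0.16 in R 4.3.3 (TMM, filterByExpr, robust quasi-likelihood, Benjamini-Hochberg adjustment over all genes, threshold 0.01). The 18 siRNA libraries were fitted with 6 groups and extraction as a term (15820 genes), and the 8 cell line libraries with 4 groups (17835 genes). Levels are TMM-scaled CPM, and RPKM divides them by exon length. DESeq2 1.42.0, RLE scaling, no filter, no extraction term, NucleoSpin libraries alone, all libraries in 1 fit, other thresholds and leaving out each library were alternatives. Scripts were tested on simulated counts.

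The members and lists were chosen with earlier results of these data known. All 44 members were named, with values for those called, and of other lists the 3 largest changes past the threshold at a mean of at least 50 counts. Groups came from the labels, and replicate numbers and passage from the study's library table. Same-numbered siRNA libraries deviated together (r from 0.412 to 0.851) over all libraries, and within NucleoSpin libraries r was 0.017 to 0.178. The same-numbered pairs used in the results are thus matched by extraction, and within NucleoSpin libraries the numbers paired weakly at most. The model used for the results held extraction and no replicate term, and the replicate block was an alternative. No 2 libraries were identical.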

Additional observations from a re-analysis of the deposited data

Results flagged for a closer look

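The siRNAs directed at the same gene differed from each other at 24 h for 4 members by the test of the difference itself (edgeR, siSMYD3#1 minus siSMYD3#2, 3 libraries each). The log2 difference was 0.97 ± 0.22 for Cxcl5 (adjusted p = 0.0092), 0.52 ± 0.11 for Ackr3 (adjusted p = 0.00662), 0.63 ± 0.14 for Il6ra (adjusted p = 0.0092) and -0.44 ± 0.09 for Il1r1 (adjusted p = 0.00504). Smyd3 itself differed by 1.27 ± 0.17 in the same comparison (adjusted p = 0.000176), and its part in these values was not tested. With the replicate number as a block, Il1r1 alone of the 4 passed (adjusted p = 0.00531), against 0.0139 for Cxcl5, 0.0103 for Ackr3 and 0.0135 for Il6ra. Leaving out 1 library lost the calls of Cxcl5, Ackr3 and Il6ra in 6 of 6 fits and that of Il1r1 in 3.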

How the results depend on the processing

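No called log2 value of a member reversed under an alternative. Of 57 called values, 56 passed with DESeq2, 55 with RLE scaling and 52 with the replicate block, but 13 without the extraction term and 33 with all 26 libraries in 1 fit. Within NucleoSpin libraries 51 of 55 passed, and 247 of 341 with 1 library left out; the cause was not tested. Beside the values given above, the replicate block changed no other siRNA call. Counts of members under an alternative, here and in the results, have the share of all genes beside them only where it is stated. Without that share they describe how stable the calls are and are no result about the members as a set.

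Members called at 24 h against 0 h went from 15 to 5 (siCtrl), from 17 to 4 (siSMYD3#1) and from 12 to 4 (siSMYD3#2) without the extraction term, and siSMYD3#1 gave 10 with all libraries in 1 fit. Leave-one-out gave 13 to 15, 8 to 15 and 11 to 14. At 0 h, siSMYD3#1 (1 called) gave 3 with no filter and 0 without the extraction term, with all libraries in 1 fit, at the 2-fold limit and in every leave-one-out fit. siSMYD3#2 at 0 h (0 called) gave 1 with DESeq2, with no filter, in NucleoSpin libraries and at a threshold of 0.05, and 0 to 1 in leave-one-out.

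At 24 h, siSMYD3#1 against siCtrl (4 called) gave 8 with DESeq2, 10 with no filter, 0 without the extraction term, 1 in 1 fit, 9 at threshold 0.05, 2 at the 2-fold limit and 1 to 5 in leave-one-out. siSMYD3#2 (4 called) gave 9 with no filter, 0 without the extraction term, 7 in NucleoSpin libraries, 0 in 1 fit, 7 at threshold 0.05, 0 at the 2-fold limit and 2 to 3 in leave-one-out. siSMYD3#1 against siSMYD3#2 (4 called) gave 2 with RLE, 8 with no filter, 1 with the replicate block, 0 without the extraction term, in 1 fit and at the 2-fold limit, and 0 to 2 in leave-one-out. The siSMYD3#1 interaction (0 called) gave 1 with DESeq2, 4 with no filter, 2 in NucleoSpin libraries, 1 at threshold 0.05 and 0 to 1 in leave-one-out, and that of siSMYD3#2 gave 1 with no filter, 1 in NucleoSpin libraries and 0 in leave-one-out. Extraction gave 12 members at the 2-fold limit, from 30.

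In the cell lines (0 called), vector at 24 h gave 1 with DESeq2 and 2 in 1 fit, and CL5 at 24 h gave 1 in 1 fit. Leave-one-out fits here keep a lone library in a group, which is assumed to vary like the others, so their counts are not given. CL5 against vector at 0 h gave 8 with DESeq2, 8 with no filter, 11 in 1 fit, 4 at threshold 0.05 and 1 with the replicate block (Cxcl12, log2 3.25, adjusted p = 0.005). At 24 h it gave 4 with DESeq2, 3 with no filter, 5 in 1 fit and 2 at threshold 0.05. For these settings the share of all genes is given above for DESeq2 only. Replicate numbers did not pair these libraries (r -0.097 to 0.145). Low counts limit Ccl5, Csf1r, Cxcl10, Cxcl12, Cxcl16, Il6, Il15, Il15ra, Il1rl1 and Il33, which each held under 10 counts in at least 1 library. Cxcl12 and Il33 also differed by extraction and passage, as given above.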
